A study of Caenorhabditis elegans with 2 samples.

Results

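The signal recognition particle (SRP) RNA genes of Caenorhabditis elegans are 5 of 46926 annotated genes, and the rule that picks them is their name in the annotation. They are the pair srpr-1.1 and srpr-1.2, the pair srpr-2.1 and srpr-2.2, and the single gene srpr-3. The positions of RPC-1, the subunit with the catalytic centre of RNA polymerase III, were read out by sequencing DNA that an RPC-1 antibody pulled down (ChIP-seq). The material was whole young adult worms of the wild isolate strain N2, with males and females pooled. There was 1 group with 2 biological replicates and no other genotype, treatment or time, so the values below describe where the polymerase was found, and no condition was compared with another. Whole worms hold many tissues, so fewer cells with the polymerase at a gene and less polymerase per cell cannot be told apart.

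The SRP is a particle of RNA and protein in the cytoplasm that binds the signal peptide of a growing secretory or membrane protein and carries the ribosome to the endoplasmic reticulum. Its RNA, called 7SL RNA in mammals, is the scaffold on which the SRP proteins assemble. It is a polymerase III transcript, and in mammals its transcription uses sequence both inside the gene and before its 5' end.

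The peaks came as 4 lists made by the authors on build ce11. Each replicate had a relaxed list of 30000 regions, the replicates pooled gave a relaxed list of 20662 regions, and a thresholded list of 1320 peaks kept those that passed an irreproducible discovery rate (IDR) step. The 1320 thresholded peaks were the 1320 strongest regions of the pooled list, the weakest with a signal of 35.57 and the strongest region left out with 35.52. The signal is the authors' own value for each region and its scale differs between lists, so it ranks regions within a list only. Signals in the thresholded list lay between 35.6 and 1269 with a median of 145. The read depth is unknown. Exact (Clopper-Pearson) 95% intervals are given for shares and cover counting error only.

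The srpr-1 and srpr-2 genes lie on chromosome III and srpr-3 lies on chromosome V. The gene srpr-1.1 (WBGene00045189, chrIII:4378909-4379206, minus strand, 298 bp) lies between protein-coding genes. Its near copy srpr-1.2 (WBGene00045168, chrIII:4369468-4369766, plus strand, 299 bp) lies 9142 bp away in an intron of ckb-2, a choline kinase gene on the same strand. The gene srpr-2.1 (WBGene00195016, chrIII:5211220-5211518, plus strand) lies between protein-coding genes, and srpr-2.2 (WBGene00195017, chrIII:5031410-5031708, minus strand) lies 179511 bp away in an intron of klp-6, a kinesin-like gene on the opposite strand. The gene srpr-3 (WBGene00195018, chrV:9293334-9293632, minus strand) lies between protein-coding genes. Annotation also lists srpr-3 under a second name, the noncoding RNA gene F44A2.13 (chrV:9293333-9293632, minus strand), so values for srpr-3 are values for that entry too. GC content was 62.9% in srpr-3 and between 56.5% and 57.5% in the others. In all 5 genes a run of T, 5 letters long in the chromosome III genes and 4 in srpr-3, included the last annotated base. Such a run is a known polymerase III stop signal.

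The sequences of 3 of the genes show how the copies differ. They are given 5' to 3' from the RefSeq assembly WBcel235, which is ce11, one for each of the srpr-1, srpr-2 and srpr-3 types. Capitals in srpr-2.2 and srpr-3 mark letters that differ from srpr-1.1.
srpr-1.1: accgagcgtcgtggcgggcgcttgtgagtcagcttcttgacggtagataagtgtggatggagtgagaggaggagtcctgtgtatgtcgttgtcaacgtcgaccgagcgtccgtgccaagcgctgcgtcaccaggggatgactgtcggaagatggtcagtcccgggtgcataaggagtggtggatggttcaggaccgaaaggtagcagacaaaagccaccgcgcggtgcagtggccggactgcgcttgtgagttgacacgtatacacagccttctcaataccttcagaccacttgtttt
srpr-2.2: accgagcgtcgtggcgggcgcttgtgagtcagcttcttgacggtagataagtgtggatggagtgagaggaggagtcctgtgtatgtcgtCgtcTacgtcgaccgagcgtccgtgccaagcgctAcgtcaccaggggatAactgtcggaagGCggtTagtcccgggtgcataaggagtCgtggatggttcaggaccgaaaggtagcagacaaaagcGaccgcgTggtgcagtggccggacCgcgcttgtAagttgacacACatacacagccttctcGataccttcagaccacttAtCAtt
srpr-3: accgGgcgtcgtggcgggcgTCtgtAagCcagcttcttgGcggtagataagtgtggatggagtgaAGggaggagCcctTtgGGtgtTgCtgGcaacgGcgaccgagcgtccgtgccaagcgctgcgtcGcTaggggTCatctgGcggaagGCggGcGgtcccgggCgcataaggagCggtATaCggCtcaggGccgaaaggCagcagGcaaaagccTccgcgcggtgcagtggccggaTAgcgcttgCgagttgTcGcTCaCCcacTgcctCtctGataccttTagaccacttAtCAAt

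Copies within the srpr-1 or srpr-2 type were nearly the same along the transcribed sequence. In a global alignment srpr-1.1 and srpr-1.2 were identical in 98.3% of columns, with 4 substitutions and 1 gap column, and srpr-2.1 and srpr-2.2 in 98.997%, with 3 substitutions. Between the types srpr-1 and srpr-2 identity was 94.0 to 94.3%. The gene srpr-3 stood further off, at 81.7 to 82.5% identity with the others and 48 substitutions against srpr-1.1. In the sequences above, the stretch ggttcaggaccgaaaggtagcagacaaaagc is shared by srpr-1.1 and srpr-2.2, and in srpr-3 it holds capitals. That stretch lies in the region of the RNA where SRP54, the subunit that holds the signal peptide, is known to bind.

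**Figure D1:**
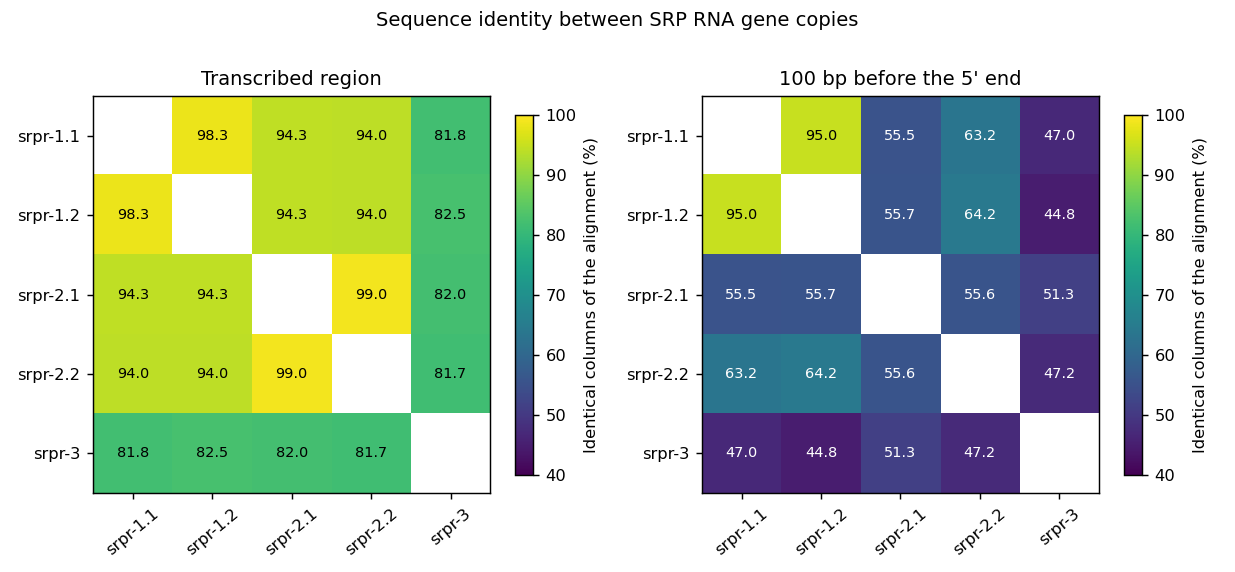
Percent identity between each pair of SRP RNA genes over the columns of a global alignment, for the transcribed region (left) and for the 100 bp before the 5' end (right), with the colour scale running from 40 to 100%. The 4 chromosome III genes are at least 94.0% identical to each other in the transcribed region, and before the 5' end only srpr-1.1 and srpr-1.2 keep such a value (95%).

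RPC-1 was found at 4 of the 5 SRP RNA genes in the thresholded list, a share of 80% (interval 28.4 to 99.5%). Of all annotated genes, 3.93% overlapped a thresholded peak. The share was 6.71% over the genes of chromosome III and 3.52% over those of chromosome V. The gene without a thresholded peak was srpr-3. In the relaxed lists all 5 genes were overlapped by a region, in the pooled list and in each replicate, where 27.7% (pooled), 34.9% (replicate 1) and 34.5% (replicate 2) of all annotated genes were.

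The strongest SRP RNA gene in the pooled data was srpr-2.2. Its peak (chrIII:5031361-5031760) had a signal of 340.3, rank 367 of 1320, so that 72.3% of the thresholded peaks were at or below it. In the replicates' own lists its strongest region had rank 340 of 30000 in replicate 1 (signal 116) and rank 387 in replicate 2 (signal 220.0). The gene was thus among the strongest regions of both replicates, at percentiles of 98.9 and 98.7.

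The near copy srpr-2.1 had almost the same level. Its peak (chrIII:5211168-5211567) had a signal of 332 and rank 381 in the thresholded list. Replicate 1 placed it at rank 328 (signal 120.1) and replicate 2 at rank 418 (signal 208). It was therefore the strongest of the 5 in replicate 1 and came second to srpr-2.2 in replicate 2.

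The srpr-1 genes followed. For srpr-1.2 the peak (chrIII:4369369-4369768) had a signal of 316 and rank 402 in the thresholded list, with rank 372 in replicate 1 (signal 109.98) and rank 430 in replicate 2 (signal 199). For srpr-1.1 the peak (chrIII:4378478-4379034, 557 bp) had a signal of 267 and rank 470, with rank 369 in replicate 1 (signal 110.5) and rank 511 in replicate 2 (signal 165). The order of these genes also changed between replicates, since srpr-1.1 stood above srpr-1.2 in replicate 1 and below it in replicate 2.

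Both srpr-2 genes ranked above both srpr-1 genes in each replicate, but the distances were small. From the weakest to the strongest of the 4 genes the signal differed 1.09-fold in replicate 1, 1.33-fold in replicate 2 and 1.27-fold in the pooled list. Mean percentiles over the replicates were 98.8 ± 0.111 for srpr-2.2, 98.8 ± 0.212 for srpr-2.1, 98.7 ± 0.137 for srpr-1.2 and 98.5 ± 0.335 for srpr-1.1 (SD, n = 2 each). Each step between neighbours in this order was smaller than the SD of at least 1 of the pair. All 4 genes had a lower percentile in replicate 2 than in replicate 1, so these SDs include a shift that the genes share. They therefore cannot judge the order. Inside each type the order changed between replicates, while srpr-2.1 stood above srpr-1.2 in both (98.91 against 98.76, and 98.61 against 98.57). With 2 replicates the order is not settled.

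The gene srpr-3 lay far below them. Its pooled region (chrV:9293268-9293667) had a signal of 23.2 and rank 1905 of 20662, and the weakest thresholded peak had 1.53 times that signal. In replicate 1 it had a signal of 16.1 and rank 1398, which is 78 ranks beyond the 1320 strongest, and in replicate 2 a signal of 10.5 and rank 2832, which is 1512 ranks beyond. Its mean percentile was 92.95 ± 3.38 (SD, n = 2), with 95.3 in replicate 1 and 90.6 in replicate 2, so all 4 chromosome III genes were above it in both replicates.

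The gap between srpr-3 and the others was large in each list. The signals of the other 4 genes were 6.85 to 7.48 times that of srpr-3 in replicate 1, 15.7 to 20.98 times in replicate 2 and 11.5 to 14.7 times in the pooled list. The authors' -log10 q value for the srpr-3 region was 2.01 in the pooled list, 2.05 in replicate 1 and 3.77 in replicate 2. The last of these is the highest value of that list and is shared by 2938 regions, so it does not order them.

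**Figure D2:**
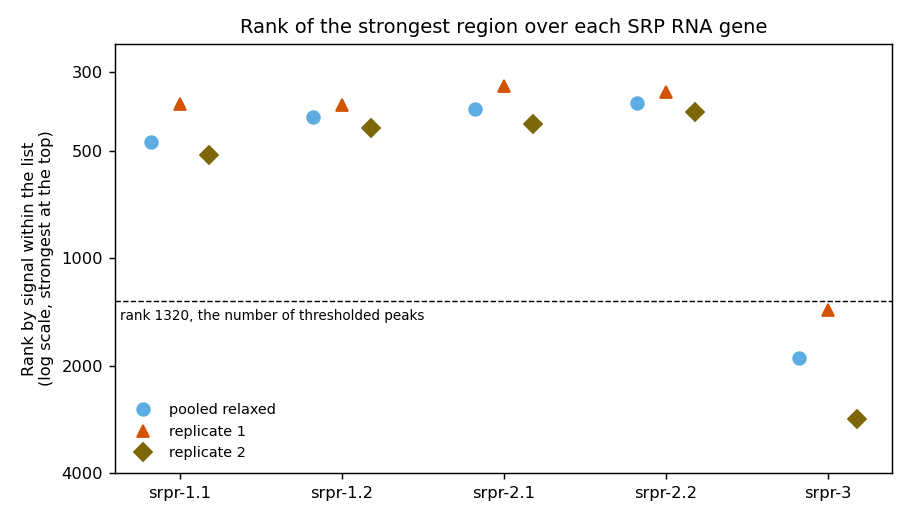
Rank by signal (log scale, strongest at the top) of the strongest region over each SRP RNA gene in the pooled relaxed list (circles), replicate 1 (triangles) and replicate 2 (diamonds). The 4 chromosome III genes sit between ranks 328 and 511 in all 3 lists, and srpr-3 sits between 1398 and 2832, beyond the dashed line at 1320, the number of thresholded peaks.

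The genes also differed in how much of their sequence is unique in the genome. Of the 32-mers in the gene with 200 bp on each side, 100% occurred once in the genome for srpr-3, against 69.2% for srpr-2.2, 68.6% for srpr-2.1, 62.3% for srpr-1.2 and 55.5% for srpr-1.1. Inside the gene alone the shares were 100% for srpr-3 and 29.9%, 28.4%, 25.4% and 13.1% for the others in the same order. The gene with the most unique sequence thus had the lowest signal, while among the other 4 the pooled signal was higher where more was unique. In replicate 1 that order did not hold within either pair, since srpr-2.1 stood above srpr-2.2 and srpr-1.1 above srpr-1.2. Reads from near-identical copies can be dropped or placed on another copy, depending on the aligner, and the aligner is not given in the sources used here. The part of sequence uniqueness in the level of srpr-3 or in the order of the others was not tested.

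Along the genes, the summit of the strongest peak lay inside the transcribed sequence for 3 of the 4 genes in the thresholded list. Counting from 1 at the annotated 5' end, it was at base 148 in srpr-2.2, base 149 in srpr-2.1 and base 102 in srpr-1.2. In replicate 1 it was at base 166 in srpr-2.2, 93 in srpr-2.1 and 119 in srpr-1.2. In replicate 2 it was at base 229 in srpr-2.2, 183 in srpr-2.1 and 111 in srpr-1.2. For srpr-3 the summits were at base 165 in the pooled list, 197 in replicate 1 and 79 in replicate 2. The replicates thus differed by 63, 90, 8 and 118 bp for srpr-2.2, srpr-2.1, srpr-1.2 and srpr-3, in genes of 299 bp, so a summit does not resolve a part of a gene. In addition, the summit was the centre of the interval in 36% of thresholded peaks, 95.8% of pooled regions, 98.3% of replicate 1's and 96.9% of replicate 2's. Among the summits above, this held for srpr-1.2 and srpr-3 in every list given. It also held for srpr-2.2 and srpr-2.1 except in replicate 2. At these regions the summit adds no position beyond that of the interval.

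The summit of srpr-1.1 alone lay outside its gene. It lay 137 bp beyond the annotated 3' end in the thresholded list and in replicate 2, and 86 bp beyond it in replicate 1. In both places it fell in coding sequence of pals-26 (chrIII:4375154-4378907, plus strand), a gene on the opposite strand whose last base lies 1 bp from the end of srpr-1.1. The peak covered 42.3% of srpr-1.1, at its 3' end. No thresholded peak lay within 250 bp of the 5' end of pals-26.

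Unique sequence at the summits differed between genes and lists. At the summit of srpr-1.1 all 32-mers that cover that base occurred once in the genome, in each list. At the thresholded summits of the srpr-2 genes and srpr-1.2 none of the 32-mers did. The summits of srpr-3, inside the gene, were also on unique sequence, at 100% in the pooled list and in both replicates. In replicate 1 the share was 87.5% at the summit of srpr-2.1, and in replicate 2 it was 37.5% at that of srpr-2.2, both inside the gene. The 200 bp past the 3' end held 100% unique 32-mers in all 5 genes. The part of this in the summit's position was not tested.

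**Figure D3:**
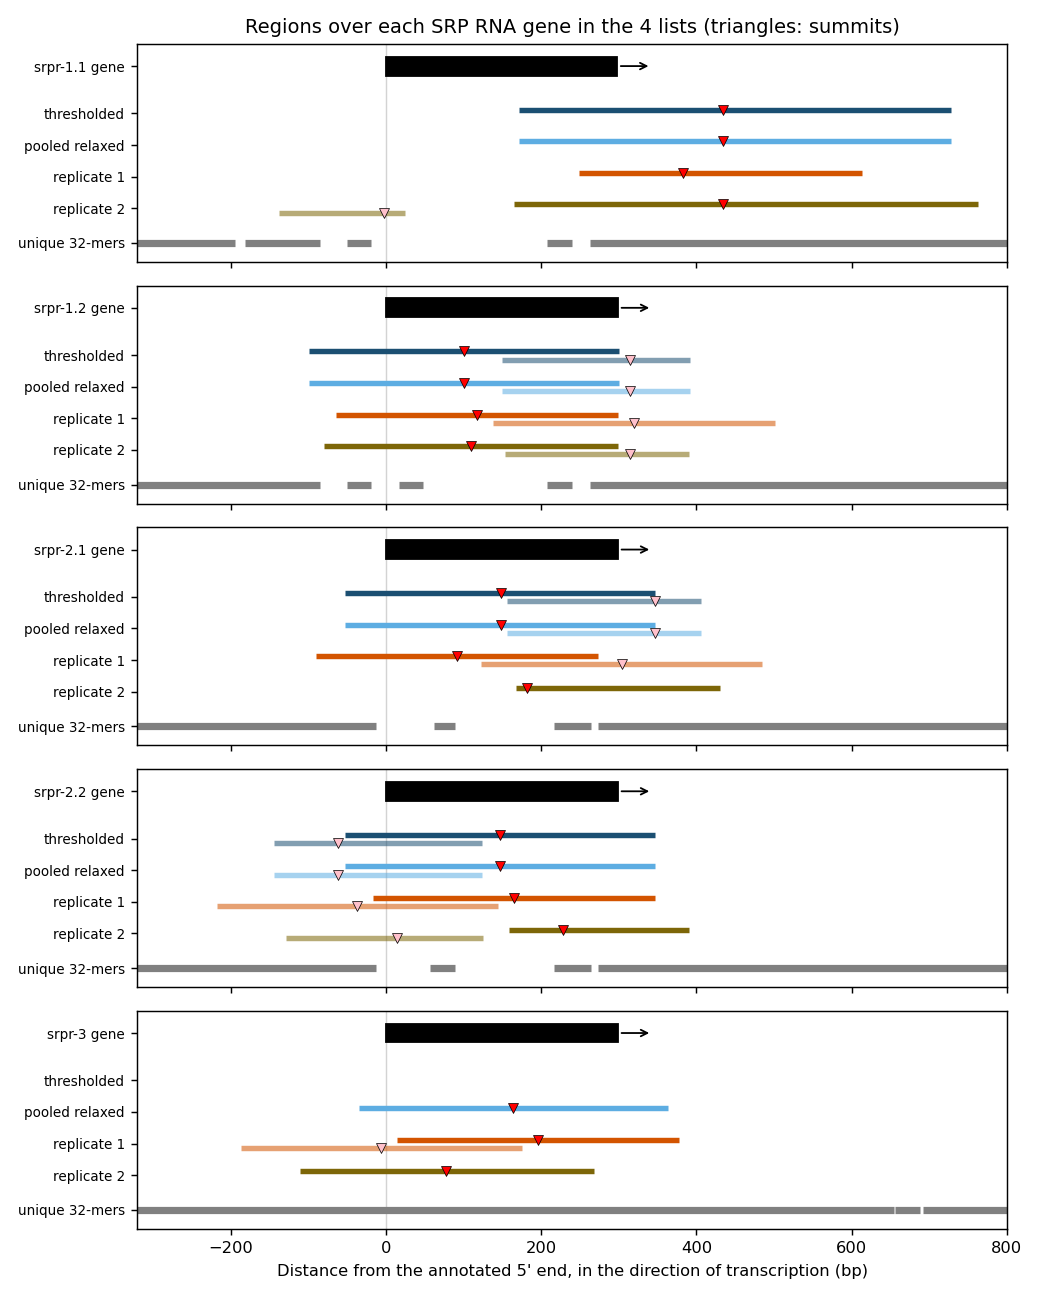
Regions overlapping each SRP RNA gene in the 4 lists, by distance in bp from the annotated 5' end in the direction of transcription; black bars are the genes, triangles the summits, fainter bars further regions over the same gene, and grey bars positions where a 32-mer that occurs once in the genome starts. Summits of the strongest region lie inside the gene except in srpr-1.1, where they lie 86 or 137 bp beyond the 3' end, and srpr-3 is unique throughout the gene.

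Further regions overlapped most of the genes. In the thresholded list srpr-2.2 had another peak with a signal of 125 (rank 701), with its summit 61 bp before the 5' end. In replicate 2 the corresponding region of srpr-2.2 had a signal of 196, close to the 220.0 of the main one, and its summit was at base 16. There srpr-2.2 is overlapped by the noncoding RNA gene R144.16 (chrIII:5031670-5031817, same strand), in which these summits lie, so the signal at this end cannot be assigned to either gene. The further peak at srpr-2.1 had a signal of 83.7 (rank 821) and its summit 49 bp past the 3' end. At srpr-1.2 it had a signal of 54.0 (rank 1030) and its summit 17 bp past the 3' end. In replicate 2 a weak region (signal 16.9, rank 1607) had its summit 3 bp before the 5' end of srpr-1.1, and in replicate 1 one (signal 8.72, rank 8562) had it 6 bp before that of srpr-3.

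Near the 5' ends the copies parted more than in the transcribed sequence, and the 100 bp before each 5' end are shown because polymerase III genes of this kind can carry promoter sequence there. Capitals mark the run GAAAAACC, the longest run that the 4 chromosome III genes share in this window, and the TATA-type run TATATTT.
srpr-1.1: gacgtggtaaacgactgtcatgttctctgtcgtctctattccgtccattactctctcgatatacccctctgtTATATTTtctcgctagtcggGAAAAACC
srpr-1.2: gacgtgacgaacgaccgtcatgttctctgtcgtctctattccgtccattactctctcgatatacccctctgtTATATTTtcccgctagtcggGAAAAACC
srpr-2.1: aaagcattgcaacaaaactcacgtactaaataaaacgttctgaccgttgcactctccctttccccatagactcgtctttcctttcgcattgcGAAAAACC
srpr-2.2: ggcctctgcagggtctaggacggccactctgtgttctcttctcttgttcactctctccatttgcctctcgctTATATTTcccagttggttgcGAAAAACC
srpr-3: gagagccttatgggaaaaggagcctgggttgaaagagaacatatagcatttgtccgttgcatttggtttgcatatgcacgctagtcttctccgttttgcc

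The 5' flanks of srpr-1.1 and srpr-1.2 were 95% identical, with 5 substitutions, so these copies share sequence beyond the transcript. Those of srpr-2.1 and srpr-2.2 were only 55.6% identical. The flank of srpr-3 was 44.8 to 51.3% identical to the others, and against the flanks of 31551 other genes it had a median identity of 47.1%. These values count gaps. Over columns without gaps the flank of srpr-3 was 63.5 to 78.7% identical to the others, and those of srpr-2.1 and srpr-2.2 were 78.3% identical. These shares leave out 26 to 50 gap columns per pair. No background without gaps is given, so they cannot be set against the median above. With gaps counted, 2680 of those other flanks reached or passed the best value of srpr-3 with a copy, and for srpr-2.1, 190 did. For srpr-1.1, srpr-1.2 and srpr-2.2 the number was 0. The best value of each srpr-2 gene was with srpr-1.2, at 55.7% for srpr-2.1 and 64.2% for srpr-2.2.

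The run GAAAAACC ended at the base just before the 5' end in the 4 chromosome III genes. It was absent on both strands of the srpr-3 window. Because it was picked as the longest run that those 4 share, its presence in them was fixed by the choice. It was found in 1.04% of the 100-bp windows of 31557 genes on either strand. That share is no test of a run picked in this way. TATATTT stood 28 to 22 bp before the 5' end in srpr-1.1, srpr-1.2 and srpr-2.2, and neither strand of the srpr-2.1 or srpr-3 window held it. Of all windows 7.18% did. These runs are letters in a window and nothing was measured on what binds them.

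Inside the transcribed sequence the B box, the internal promoter element to which transcription factor TFIIIC binds in tRNA genes, was searched on both strands. Its best match was at bases 185 to 195 on the gene's own strand in all 5 genes. In the sequences below, for 1 gene of each type, the match is in capitals with the bases around it.
srpr-1.1: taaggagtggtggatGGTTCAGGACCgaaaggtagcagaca
srpr-2.2: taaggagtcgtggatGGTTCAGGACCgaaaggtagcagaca
srpr-3: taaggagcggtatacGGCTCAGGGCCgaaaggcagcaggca

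The 4 chromosome III genes had 1 mismatch to the B box, A7G, where positions count from 1 at the 5' end of the box and the box's base is written first. A match with 1 mismatch or fewer occurred in the first 300 bp of 9.63% of 31558 genes. In srpr-3 there were 2 mismatches, T3C and A7G, and a match as good as that occurred in 57.1% of genes. The only copy without a thresholded peak, srpr-3, therefore also differed from the others in this match. The match is also the start of the stretch, given above, that lies where SRP54 is known to bind the RNA. Nothing was measured on whether TFIIIC binds it, and its part in the difference was not tested.

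Few other genes lay close by. Within 1000 bp of srpr-1.1, besides pals-26, was B0284.3 (chrIII:4379321-4379817, same strand, 114 bp away on the 5' side). Near srpr-2.1 was ZC155.4 on the opposite strand, 262 bp past the 3' end, and near srpr-2.2 was the long noncoding RNA gene R144.19, 955 bp past the 3' end. Around srpr-1.2 and srpr-3 the only genes within that distance were ckb-2 and F44A2.13. None of the 5 protein-coding genes within 1000 bp (pals-26, B0284.3, ckb-2, ZC155.4 and klp-6) had a thresholded peak within 250 bp of its 5' end. Only 1.87% of all protein-coding genes had one, so this count says little about these neighbours. The nearest tRNA gene lay 6825 bp from srpr-1.2 (B0285.t1), and the other SRP RNA genes were at least 16266 bp from one, so no tRNA gene lay under these peaks.

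Other classes of noncoding RNA genes give the scale. The snoRNA class holds every gene annotated as one, whichever polymerase transcribes it. The SRP RNA genes with a thresholded peak had a median signal of 324, against 366 at the 566 of 612 nuclear tRNA genes that had one (92.5%) and 186 at 11 of 22 U6 small nuclear RNA genes. The 5S ribosomal RNA class had 1 of 16 genes with a peak, with a signal of 136, and 69 of 346 small nucleolar RNA (snoRNA) genes had one, with a median of 505. These medians cover only genes past the threshold. Unique sequence was measured for the SRP RNA genes only, so its part in the low 5S count was not tested. Over genes with a pooled relaxed region the median was 316 for the 5 SRP RNA genes, against 361 for 578 tRNA genes, 115 for 16 U6 genes and 45.2 for 130 snoRNA genes. Among single noncoding RNA genes, rpr-1, the RNase P RNA gene, had a signal of 455 (rank 220) and mrpr-1, the RNase MRP RNA gene, 499 (rank 161), both above every SRP RNA gene. The Y RNA gene yrn-1 had 257 (rank 484), below all 4. These positions held in each replicate for rpr-1 and mrpr-1, at ranks 174 and 162 in replicate 1 and 249 and 173 in replicate 2. For yrn-1 the rank was 524 in replicate 1 and 483 in replicate 2, where it stood above srpr-1.1 (511). The summits of these 3 genes lay inside the gene in each list, unlike that of srpr-1.1.

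**Figure D4:**
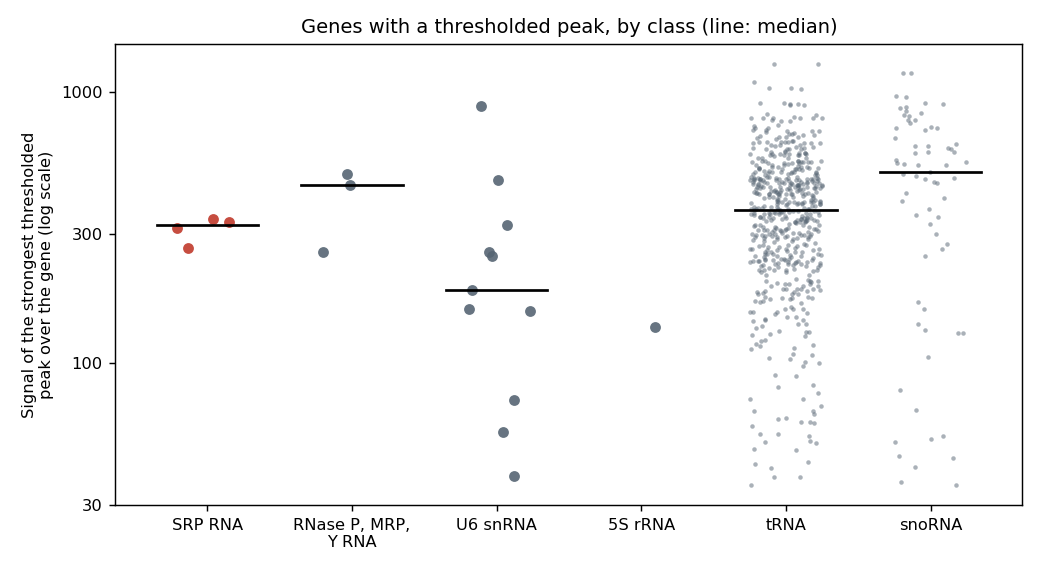
Signal (log scale) of the strongest thresholded peak over each gene that has one, by class; points are genes and lines are medians. The 4 SRP RNA genes lie between 267 and 340.3, inside the range of the tRNA genes and close to their median of 366.

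In the thresholded list the peaks next above and next below each of the 4 genes in signal all lay at tRNA genes. For srpr-2.2 these were ZK994.t3 and E01H11.t1, for srpr-2.1 F21C3.t1 and F29C4.t1, for srpr-1.2 C24H11.t1 and Y95B8A.t1, and for srpr-1.1 T26C11.t1 and C28A5.t2. The tRNA gene peaks around srpr-2.2 had signals of 340.7 and 339.8, and those around srpr-1.1 had 268 and 265.

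The genes for the protein side of the particle, which polymerase II transcribes, are the other members of the pathway. They were taken as the 9 protein-coding genes whose RefSeq product names the signal recognition particle. Among them were F25G6.8 and F25G6.9, both named for SRP14, ZK512.4 for SRP9, F37F2.2 for SRP19, F21D5.7 for SRP54, srpa-72 for SRP72, and Y37F4.4 for a docking protein of the FtsY type. A list made by product name can hold genes that are not subunits of the particle. The shares below therefore describe the list and not the pathway. One of the 9 had a thresholded peak within 250 bp of its 5' end, a share of 11.1% (interval 0.281 to 48.2%), where 1.87% of protein-coding genes did. In the relaxed lists it was 4 of 9 (44.4%) in the pooled list, 5 of 9 (55.6%) in replicate 1 and 4 of 9 (44.4%) in replicate 2, against 22.8%, 28.3% and 29.2% of protein-coding genes.

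The gene with the thresholded peak was F37F2.2, whose product SRP19 is known to help SRP54 onto the RNA. Its peak (chrI:1443995-1444394) had a signal of 102 (rank 760), below all 4 SRP RNA genes, with the summit 251 bp before the 5' end. It ranked 750 in replicate 1 (signal 36.2) and 816 in replicate 2 (signal 59.9). The snoRNA gene F37F2.4 lay 113 bp from the peak, and its part in the signal was not tested. Among the relaxed regions at the other genes of the list, the highest pooled rank was 5041 of 20662, at F25G6.8 (signal 14.8), behind srpr-3, the weakest of the RNA genes, at rank 1905.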

How the data were processed

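The 2 RPC-1 ChIP-seq libraries of whole young adult N2 worms were deposited as peak lists, and the labels name them biological replicates 1 and 2. Per the submitters' notes on their files, relaxed calling used the alignment of 1 replicate, or both for the pooled list, with a control, and the IDR step then gave the thresholded list. The control library was not analysed here. Neither the aligner nor the peak caller is given in the sources used here. The authors' signal value per region (column 7 of the deposited lists) was used to rank regions within a list, and the deposited -log10 q value was quoted only. Lists on ce10 were not used, since coordinates were not converted.

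Any overlap of a region with a gene counted as a peak there. Protein-coding genes were judged by a window of 250 bp before and after the 5' end. The strongest overlapping region gave signal, rank and summit. Percentiles are the percent of regions in a list at or below that signal. Coordinates are 1-based on ce11. Sequence, product names and some gene labels came from RefSeq WBcel235, and gene positions and classes from the Ensembl annotation of WBcel235. U6 genes were the small nuclear RNA genes that hold ACAGAGA. Identity was the share of identical columns in a global alignment (match 1, mismatch -1, gap opening -2, extension -0.5). With 1 group of 2 replicates no test across samples was possible.

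Genes named are the 5 SRP RNA genes, annotated genes within 1000 bp, SRP protein genes from the product list (not all are reported by name here), genes at the thresholded peaks next in signal, and rpr-1, mrpr-1 and yrn-1. The members follow from gene names alone, but this set of genes and the lists were taken up with earlier results of these data known, and the runs GAAAAACC and TATATTT were picked after the sequences were seen. The overlap step was tested on simulated data and recovered 200 of 200 peaks planted among 612 tRNA genes. Alternatives were stricter and looser overlap, the upper 50% of peaks, each replicate left out, 1 peak per interval, 24-mers and 50-mers, and identity without gaps. The software was Biopython 1.88, BLAST 2.17.0, Matplotlib 3.10.9, pandas 2.3.3, SciPy 1.17.1 and NumPy 2.4.6 under Python 3.11.15.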

Additional observations from a re-analysis of the deposited data

How the results depend on the processing

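The count of SRP RNA genes with a thresholded peak was 4 as reported. It stayed 4 with 250 bp of tolerance, without replicate 1 and without replicate 2. In the upper 50% of peaks it was 4 as well, which follows from the ranks of 367 to 470. The 1320 strongest pooled regions also gave 4, but they are the thresholded peaks themselves, so this is no separate check. It was 3 with the summit required at most 100 bp from the gene, or with at least 50% of the gene covered, and the gene lost in both was srpr-1.1. The median percentile of the 4 genes was 70.4, with a range of 67.95 to 73.2 when a replicate was left out. The median summit position of the 4 genes was base 148.5, and it was 206 without replicate 1 and 142.5 without replicate 2. The cause was not tested. The count of SRP protein genes with a peak was 1, and it was 0 with the summit required at most 250 bp from the 5' end, where that of F37F2.2 is at 251 bp, and 0 in the upper 50% of peaks. The median share of unique k-mers was 68.6% with 32-mers and 74.6% with 50-mers, because longer words are more often unique. The median identity of the 5' flanks was 55.5% over all alignment columns and 73.5% over columns without gaps. Of the alternatives for these and the remaining summary results 18 gave a like value and 4 did not, and for single genes and flanks 23 did and 6 did not. A count of 3 in place of 4 was taken as like here. The like values also include alternatives that use the same peaks as the main result. These tallies therefore do not measure how stable the results are. Left-out replicates were stood in for by the other replicate's own list. No paired analysis was possible because there is only 1 group. Depth is unknown, so how many regions a deeper library would add cannot be stated.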

Other observations

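A search of the genome with the 5 SRP RNA genes (BLAST, e-value of at most 0.001) found 7 further stretches, all on chromosome X and all matching sequence within the first 55 bases of srpr-3, at 89.1 to 93.6% identity over 30 to 54 bp. They were looked at after the values of srpr-3 were seen. One of them (chrX:16698130-16698176), in the noncoding RNA gene F22H10.10, had a thresholded peak with a signal of 40.6 (rank 1212), above the pooled signal of srpr-3 (23.2). It ranked 1089 in replicate 1 (signal 19.6) and 2978 in replicate 2 (signal 10.2). Of the 7, 5 overlapped a pooled region, 1 a region of replicate 1 and 7 a region of replicate 2. Of all annotated genes, 3.93% (thresholded), 27.7% (pooled), 34.9% (replicate 1) and 34.5% (replicate 2) were overlapped. Genes differ in length from these stretches, and no share for chromosome X is given. The weakest of these regions ranked 10391 in the pooled list and 19106 in replicate 2. Of the pooled ones, a stretch at ace-1 and the noncoding RNA gene F01G12.19 had a signal of 34.7 (rank 1346) and one in the noncoding RNA gene C05D9.12 a signal of 34.4 (rank 1351), both just under the thresholded list. The nearest tRNA genes lay between 6946 and 79108 bp from these stretches.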
